A study of Mus musculus with 4 samples.

Results

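The mouse major histocompatibility complex, H2, was examined as 1 stretch of chromosome 17. Its members were all regions of convergent transcription, in any of 4 GRO-seq libraries, that overlapped the window chr17:33900000-36600000 of the mm9 assembly. The window held 107 and 98 regions in unsynchronized libraries 1 and 2 and 119 and 85 in early G1 libraries 1 and 2, which merged into 151 of the 20175 regions of the whole genome. The deposited lists name no genes, so members were chosen by position alone, and neither the label of the window nor the cell type could be checked against named genes.

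GRO-seq (global run-on sequencing) labels the RNA that polymerases are making at the time the nuclei are taken, and so reads nascent rather than stored RNA. A region is convergent where nascent RNA is found on both strands. The cells were splenic B cells of C57BL/6 mice of genotype Fucci-EGFP+, a cell cycle reporter, activated in culture with LPS, IL4 and Rp105. The 2 unsynchronized libraries came from such cells without synchronization. For the 2 early G1 libraries, nocodazole, which blocks cells in mitosis, was given at 100 ng/ml from 42 h after isolation. EGFP+ cells, mostly in G2/M, were then sorted and returned to culture, and early G1 cells were sorted after 1.5 h. The deposited name of early G1 replicate 1 gives a release of 1 h instead. Early G1 therefore cannot be told apart from nocodazole, sorting and return to culture. No label states that the replicates are separate mice or cultures. A p-value here therefore rests on 4 libraries, whose differences may be technical. In such bulk samples, fewer transcribing cells and less RNA per cell cannot be told apart.

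The complex is a classic example of a gene-dense, immune-specialised stretch of the genome. Class II genes encode the molecules with which B cells present peptides from engulfed antigen to helper T cells, and lie beside genes for peptide loading and transport. Class III genes encode complement components, heat shock proteins and the cytokines Tnf, Lta and Ltb. Class I genes encode molecules that present peptides from inside the cell to cytotoxic T cells. They include H2-D1 and the related genes of the H2-Q and H2-T families. In mice 1 class I gene, H2-K1, lies apart from these, on the centromeric side of class II.

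In the RefSeq table of the GRCm38 assembly, the class II genes run in the order H2-Oa, H2-DMa, H2-DMb2, H2-DMb1, Psmb9, Tap1, Psmb8, Tap2, H2-Ob, H2-Ab1, H2-Aa, H2-Eb1 and H2-Eb2. These 13 genes stand among only 14 protein-coding genes from first to last. The 13 class III genes looked up, from Notch4 through C4b, Cfb, Hspa1b, Ltb, Tnf and Lta to Ddx39b, span 57 protein-coding genes. That assembly is not the one of the deposited lists, so it gave names and neighbours only, and no region was assigned to a gene. By the positions in the selection rule, the window was divided into a left flank (chr17:33900000-34200000), a class II stretch (to 34500000), a class III stretch with Tnf (to 35400000) and a class I stretch (to 36600000).

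The signal of a region is the geometric mean of its transcription on the 2 strands. Its values fitted reads scaled by region length and library size, with inferred totals of 14720000 and 13480000 reads for the unsynchronized and 8170000 and 9520000 for the early G1 libraries. A median member held 247 and 368 reads, against 229 and 332 in early G1, counted as the geometric mean of the strands. Counting error was then at least 3.69% to 4.68%, a floor for a median member that leaves out all other variation. These figures cover counting error only, since the reads carry no molecular identifiers.

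The H2 window was far richer in convergent transcription than the rest of chromosome 17, in every library. The unsynchronized libraries had 39.6 and 36.3 regions per Mb in the window, against 5.98 and 5.63 in the rest of the chromosome. The early G1 libraries had 44.1 and 31.5 per Mb, against 6.21 and 5.13. The density was thus 6.14 to 7.09 times that of the rest, a mean of 6.57-fold, and higher in 4 of 4 libraries. The exact two-sided sign-flip permutation test gave p = 0.13, the smallest that 4 libraries allow. In span the window was 2.93% of the chromosome between its first and last region, yet it held 15.6% to 17.6% of the chromosome's regions.

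Members also lay closer together, and were longer. Regions covered 7.35% and 6.74% of the window in unsynchronized cells and 7.62% and 6.44% in early G1 cells. The rest of chromosome 17 was covered at 0.987% and 0.837%, and at 0.876% and 0.768%. Coverage was therefore 8.13-fold higher in the window on average, again in 4 of 4 libraries (exact sign-flip permutation p = 0.13). The median distance from one member to the next was 7.55 to 8.98 kb, compared with 26.7 to 39.0 kb outside. A median member was 1247 and 1307 bp long in unsynchronized cells and 1214 and 1169 bp in early G1 cells, on average 1.39-fold longer than elsewhere on the chromosome (p = 0.13 by the same exact test).

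Signal set the window apart much less than number and length did. The median signal was 13.5 and 24.6 for unsynchronized cells, compared with 19.5 and 27.3 for early G1 cells. The rest of chromosome 17 had medians of 11.0 and 15.1, and of 17.9 and 20.4. Each library was thus higher within the window, by 1.09 to 1.63 times, a mean difference of 0.37 ± 0.24 (SD, n = 4) in log2(signal + 1) (exact sign-flip permutation p = 0.13). The 2 unsynchronized libraries differed from each other by more than the window did from its surroundings.

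No other stretch of the same 2.7 Mb matched the window. Among 33 tiles of chromosome 17 it ranked 1 by number of regions, with a mean of 102.25 per library against 50.5 in the next tile and a median of 12 in the others. It ranked 1 by coverage as well, at 7.04% against 3.15% in the next tile, and both ranks held in each of the 4 libraries. By median signal it ranked 4, and only 7 with the tiles laid at a shifted start. It also came first among 905 tiles that were the window itself and the tiles of the other chromosomes, an extension chosen after seeing the data. The highest number of regions in any other tile was 80.75 and the highest coverage 5.22%, or 73.5 and 5.51% with shifted tiles.

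**Figure D1:**
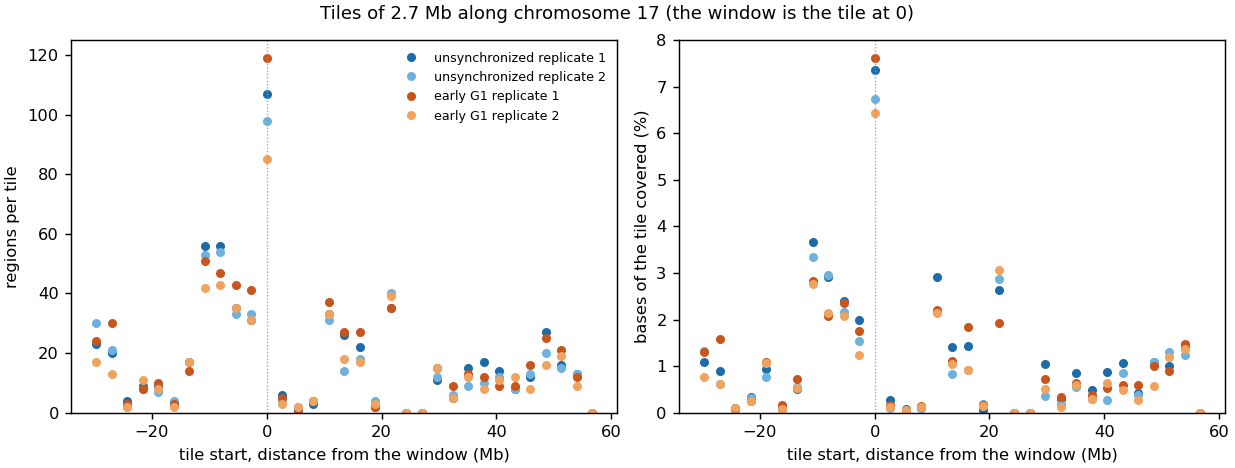
Regions per tile (left) and percent of bases covered (right) in tiles of 2.7 Mb along chromosome 17, plotted by their distance in Mb from the H2 window; each point is 1 library. The window, at 0, stands above every other tile in all 4 libraries, with 85 to 119 regions and 6.44% to 7.62% coverage.

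Between early G1 and unsynchronized cells, 3 of these 4 measures of the whole window overlapped. The log2 ratio of window to rest differed between the groups by 0.01 for density (exact permutation p = 1) and by -0.06 for length (p = 1, same test). For median signal the difference was -0.21 (exact permutation p = 0.667). Only the coverage ratio did not overlap between groups, at 7.45 and 8.05 in unsynchronized cells and 8.69 and 8.38 in early G1 cells. With 2 libraries against 2, that p of 0.33 is the smallest the exact permutation test can give.

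Regions were spread unevenly along the complex, and the class II stretch was the densest part. It held 28 and 30 regions in unsynchronized cells and 36 and 25 in early G1 cells, a mean of 99.2 per Mb. The class III stretch averaged 35 per Mb, the left flank 38.3 and the class I stretch 24.6. Even the sparsest, class I, was several times denser than the rest of the chromosome in each library. The order of class III and class I depends on the limit between them: with it at 35300000 they held 24.7 and 31.7 regions per Mb.

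Within the class II stretch 18.6% of all bases lay in a region of convergent transcription, averaged over the libraries. Its regions carried 43.7% of the summed signal of the window on 300 kb of sequence. Their length-weighted mean signal was 42.1 and 51.0 in unsynchronized cells and 46.7 and 52.3 in early G1 cells, and so did not separate the groups. In the class III stretch the corresponding values were 18.4 and 30.6 against 25.7 and 33.88. The class II stretch exceeded the class III stretch in mean signal in each of the 4 libraries.

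**Figure D2:**
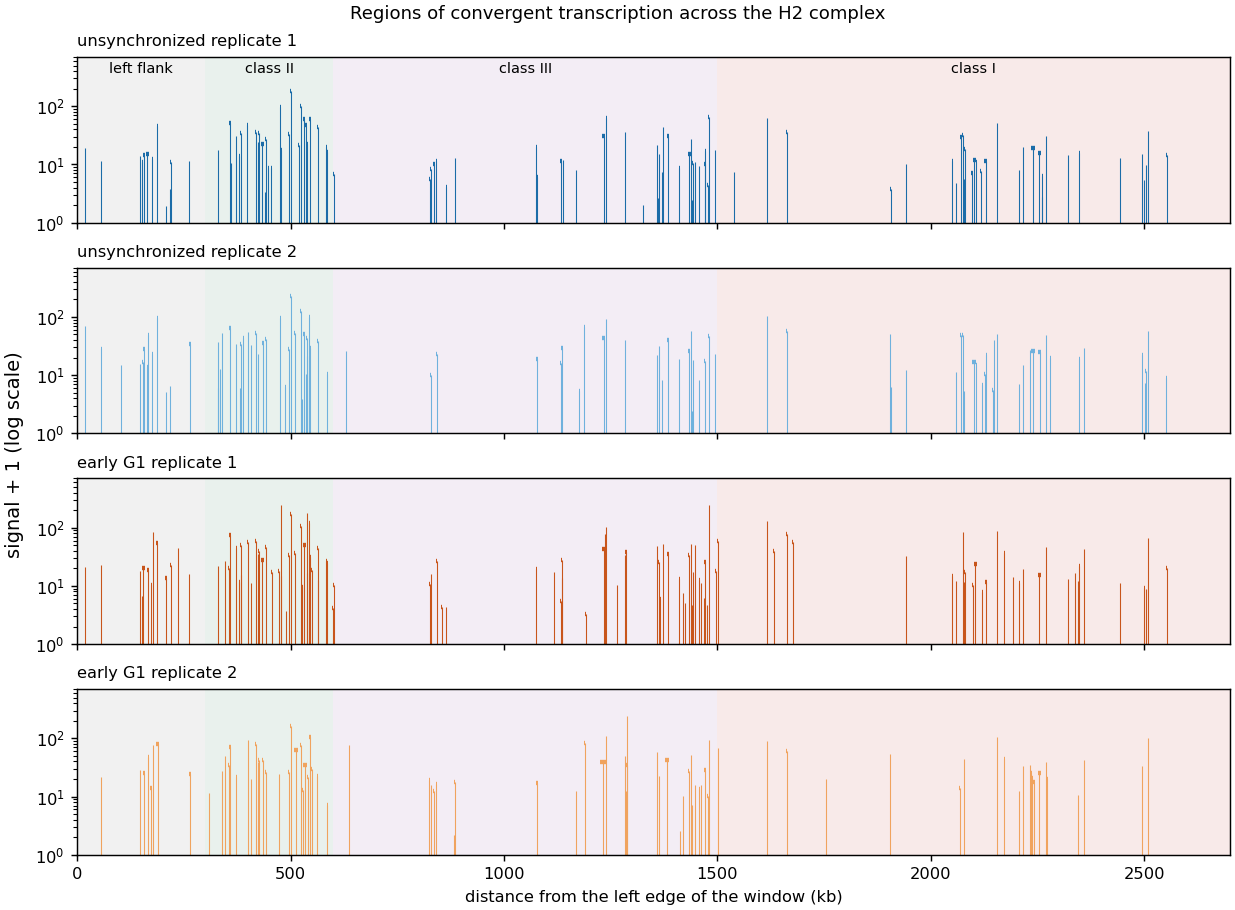
Every region of the window in each library: horizontal position and width are distance from the left edge in kb, and height is signal + 1 on a log scale. Shading marks the left flank, class II, class III and class I stretches; regions crowd into the class II stretch, and empty intervals of up to 189 kb interrupt the class III stretch.

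Empty intervals were as uneven as the regions. No library had a region in chr17:34784664-34973954 or chr17:34536225-34724775, both of 189 kb within the class III stretch. The class I stretch had empty intervals of 150 kb (chr17:35653751-35803857) and 108 kb (chr17:35842075-35950568), and the last 147 kb of the window, chr17:36452577-36600000, held no region either. Of the 100 kb bins of the class III stretch, the one that starts at 35300000, the position the rule gives for Tnf, had the highest mean coverage, 18.7 kb. It had 18.2 and 13.3 kb covered in unsynchronized cells and 26.2 and 17.1 kb in early G1 cells.

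Early G1 coverage was above that of unsynchronized cells in the class II and class III stretches and below it in the class I stretch. In the class II stretch, regions covered 54.8 and 47.0 kb in unsynchronized cells and 63.7 and 57.6 kb in early G1 cells. Both early G1 libraries lay above both unsynchronized libraries, at 60.6 ± 4.32 against 50.9 ± 5.54 kb (SD, n = 2), a ratio of 1.19. This separation hung on a single call, chr17:34408464-34417585, of 9122 bp in early G1 replicate 2 and 1415 bp in early G1 replicate 1. Without it, early G1 replicate 2 would lie below unsynchronized replicate 1. In the class III stretch the covered lengths were 58.3 and 50.8 kb against 66.7 and 61.9 kb, a ratio of 1.18. There too, the groups did not overlap. Early G1 replicate 2 had calls of 12458 bp at chr17:35125378-35137835 and 11191 bp at chr17:35276352-35287542, against 6503 and 5276 bp in unsynchronized replicate 1. That excess is larger than the gap in covered length between these libraries, so this separation also hung on a few long calls.

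In the class I stretch, by contrast, regions covered 60.2 and 58.6 kb in unsynchronized but only 44.1 and 30.1 kb in early G1 cells. The groups were well apart, at 59.4 ± 1.07 against 37.1 ± 9.92 kb (SD, n = 2), a ratio of 0.613. This separation too rested on long regions. The 5 merged class I regions over 5 kb covered 37.8 and 34.7 kb in unsynchronized cells and 18.6 and 16.7 kb in early G1 cells. The other 42 class I regions overlapped between the groups, at 22.33 and 23.97 kb against 25.45 and 13.33 kb. Over the rest of chromosome 17, coverage in early G1 was 0.903 times that in unsynchronized cells, with overlapping groups. The left flank showed 25.2 and 25.4 kb against 31.3 and 24.3 kb, also overlapping. The 3 non-overlapping stretches reached an exact permutation p of 0.33, the smallest that 2 against 2 libraries allow, so none can pass 0.05. Early G1 libraries also had fewer inferred reads, as given above, and the part of depth in these lengths was not tested.

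**Figure D3:**
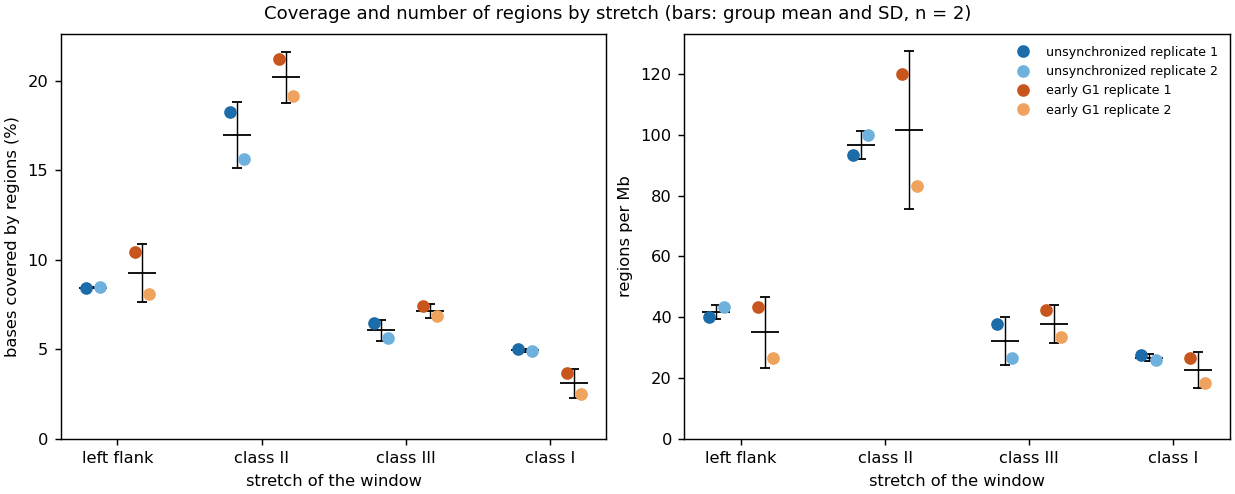
Percent of bases covered (left) and regions per Mb (right) for the 4 stretches of the window, with 1 point per library and bars for the group mean and SD (n = 2). Early G1 coverage is above both unsynchronized libraries in the class II and class III stretches and below both in the class I stretch, while regions per Mb overlap between the groups everywhere.

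Of the 5 merged class I regions over 5 kb, 4 were missing from 1 early G1 library each, but not always from the same one. They are described one by one, without a test, since the calls compared here also set the merged length by which they were picked. The longest, chr17:35995182-36007392, was called over 11400 and 9364 bp in unsynchronized cells and over 8860 bp in early G1 replicate 1, and was absent from replicate 2. The region chr17:36024797-36031387 was likewise absent from replicate 2, with 5610 and 5576 bp in unsynchronized cells and 3484 bp in early G1 replicate 1. Conversely, chr17:36133898-36144099 was absent from early G1 replicate 1 and spanned 9817, 9607 and 9257 bp in the other libraries.

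The fourth, chr17:35967026-35973047, was absent from early G1 replicate 1 too, and spanned 1135 bp in replicate 2, against 4656 and 3657 bp in unsynchronized cells. The one remaining long region, chr17:36151194-36157901, kept its length in all 4 libraries, at 6347, 6470, 6303 and 6337 bp. Its signal was 14.4 and 24.5 in unsynchronized cells and 14.7 and 24.7 in early G1 cells, with no difference between the groups. Class I genes include related copies, and the sources used here do not give how reads matching several copies were placed. No region was assigned to a gene, so which of these regions lie in class I genes is not known.

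Calls of such length also varied outside class I. One class II region of this size, chr17:34408464-34417585, was absent from unsynchronized replicate 1, and spanned 1219 bp in replicate 2 and 1415 and 9122 bp in early G1 cells. A class III region, chr17:35031281-35037947, was absent from early G1 replicate 2. It was called over 4564 and 6629 bp in unsynchronized cells and over 5292 bp in early G1 replicate 1.

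The length-weighted mean signal of the class I stretch was 16.1 and 23.9 in unsynchronized cells and 26.2 and 34.6 in early G1 cells, so early G1 was higher in both. Regions were not uniform in this: chr17:35967026-35973047 had 13.0 in early G1 replicate 2, against 28.7 and 48.1 in unsynchronized cells. The means were also taken over different calls in each library. Of the long regions missing from early G1 replicate 2, chr17:35995182-36007392 had 9.66 and 15.5 in unsynchronized cells and chr17:36024797-36031387 had 10.7 and 15.1, below the means there. Those missing from early G1 replicate 1 lay above them, with 17.9 and 25.5 at chr17:36133898-36144099. The part of missing calls in the means was not tested. Signal times length in kb, summed over the class I regions, was 971 and 1400 in unsynchronized cells and 1157 and 1040 in early G1 cells, with overlapping groups. The sums for class II were 2306 and 2395 against 2970 and 3008, and those for class III were 1071 and 1554 against 1714 and 2096, both higher in early G1. As a share, class I regions made up 21.4% ± 1.49 of the summed signal of the window in unsynchronized cells and 16.2% ± 2.05 in early G1 (SD, n = 2). The class III share was 23.7% ± 1.75 against 27.9% ± 2.53, and the class II share 43.4% ± 7.02 against 44.0% ± 1.88. On the deposited scaling, the class II and class III sums were thus higher in early G1, while the class I sums overlapped. The left flank sums overlapped, at 423 and 887 against 713 and 907. All these values are on the deposited scaling. On it, the median region called in all 4 libraries, genome-wide, was 1.33-fold higher in early G1 by log2(signal + 1). Which sums were higher or lower in early G1 therefore depends on that scaling, and the sums were not compared on another. The shares are taken within a library and do not depend on it.

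Most members were called in some libraries only. Of the 151 merged members, 45 (29.8%) were called in all 4 libraries and 41 (27.2%) in only 1. In the rest of chromosome 17, 23.3% of 867 merged regions were in all 4 libraries and 39.1% in 1. The remaining members were in 2 libraries (35) or 3 (30), and 18 of the latter were missing from early G1 replicate 2 alone. Among regions in 3 libraries, this was so for 56 of 155 in the rest of chromosome 17 and 1325 of 3278 genome-wide. That library had the fewest regions genome-wide, 10708. Presence depends on calls made in each library separately, so it was counted and not tested.

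Recurring members had a median signal of 31.8, against 7.58 for members called in 1 library. A merged length grows with the number of calls joined, so single calls were compared: their median was 1771 bp for members in all 4 libraries and 822 bp for those in 1. In the left flank 7 of 14 members were in all 4 libraries, in class II 15 of 43 and in class III 15 of 47. In class I it was only 8 of 47, and 9 of the 15 members in 3 libraries were missing from early G1 replicate 2 alone. The corresponding counts were 2 of 2 in the left flank, 4 of 7 in class II and 3 of 6 in class III.

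**Figure D4:**
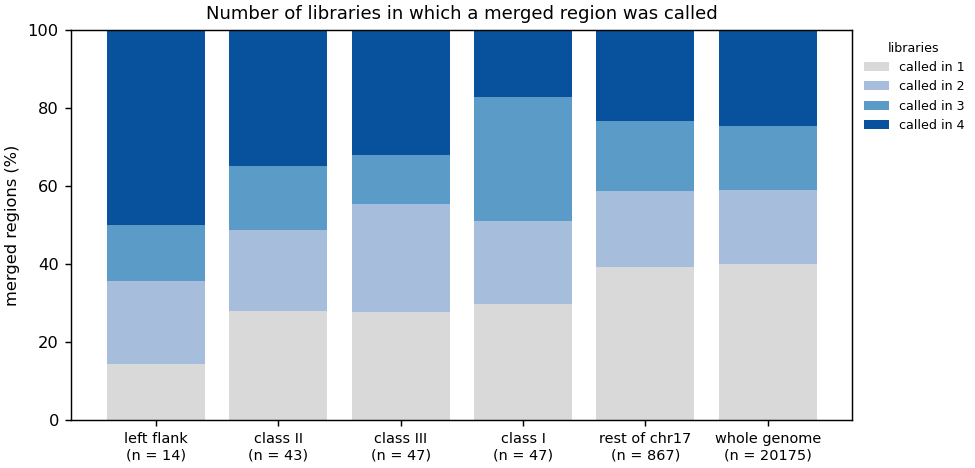
Percent of merged regions called in 1, 2, 3 or 4 libraries, for the 4 stretches of the window, the rest of chromosome 17 and the whole genome. The class I stretch has the smallest share called in all 4 libraries (8 of 47) and the left flank the largest (7 of 14), beside 24.6% for the genome.

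Calls confined to 1 cell state were more often early G1 than unsynchronized within the complex. Of 151 members, 12 were in both early G1 libraries and neither unsynchronized one, and 3 were of the opposite kind. Elsewhere on chromosome 17 the counts were 29 and 41 of 867 regions, and genome-wide 747 and 1004 of 20175. Several of the 12 lay within 1 kb of an unsynchronized region, at 84, 85, 550, 714 and 984 bp. When regions within 1 kb were merged, the window counts became 7 and 0.

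The longest member restricted to early G1, chr17:35184136-35188848 in the class III stretch, was also among the strongest of them. It was 4713 bp long with signals of 37.1 and 44.9 in early G1 cells, resting on 1428 and 1314 reads. The nearest unsynchronized region lay 550 bp away. Next in length were chr17:35318313-35320486 and, in the class II stretch, chr17:34448670-34450344, with early G1 signals of 6.68 and 9.04, and of 18.0 and 28.7.

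The 3 members restricted to unsynchronized cells were weak. At chr17:35269732-35271198 the signals were 6.37 and 7.29, at chr17:34117099-34118253 they were 2.79 and 5.50, and at chr17:35805070-35806210 they were 2.79 and 5.24. Each lay within 1 kb of an early G1 region, at 812, 97 and 480 bp. They held 39 to 132 reads per library, and whether early G1 cells had less there was not detectable at this depth.

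Signal was then compared at the 45 members called in all 4 libraries, within a limma fit over all 4972 such regions of the genome. None of the 45 passed an adjusted p of 0.05, and the smallest was 0.20. In the whole genome, limma called 0.302% of regions higher in early G1 cells and 0.0402% lower, 17 in all. That number moved to 68 and 119 without early G1 replicate 1 or 2, and to 1 without unsynchronized replicate 2. Without adjustment, at p under 0.05, it gave 3 members higher and 0 lower, where the background was 13.9% higher and 0.945% lower. Of the members, 6.67% were higher by that rule, below the background.

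Both early G1 libraries exceeded both unsynchronized ones at 17 members (37.8%, against 43.9% of all shared regions) and fell below them at 1 member (2.22%, against 4.67%). The median log2 change of the members was 0.32 on the log2(signal + 1) scale, which understates changes of low regions, with 36 of 45 above 0. It was 0.41 both in the rest of chromosome 17 and over all shared regions. That general shift depends on scaling: with each library divided by its median over shared regions, the members' median was -0.13 and 18 were above 0. It was 0.01 without unsynchronized replicate 1. Signs below are those on the deposited scaling, so a change near 0.41 is one that a median region of the genome also had.

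The median change differed in size between the stretches, which was not tested. In the class II stretch the median log2 change was 0.01, with 8 of 15 members above 0. It was 0.40 in the class III stretch, with 14 of 15 above 0, and 0.60 in class I, with all 8 shared members above 0. The left flank had a median of 0.22 over 7 members. Counted against the genome-wide median instead of 0, 4 of 15 class II, 7 of 15 class III, 6 of 8 class I and 2 of 7 left flank members lay above it, 19 of 45 in all. These 8 class I members leave out the long regions that early G1 libraries lacked.

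**Figure D5:**
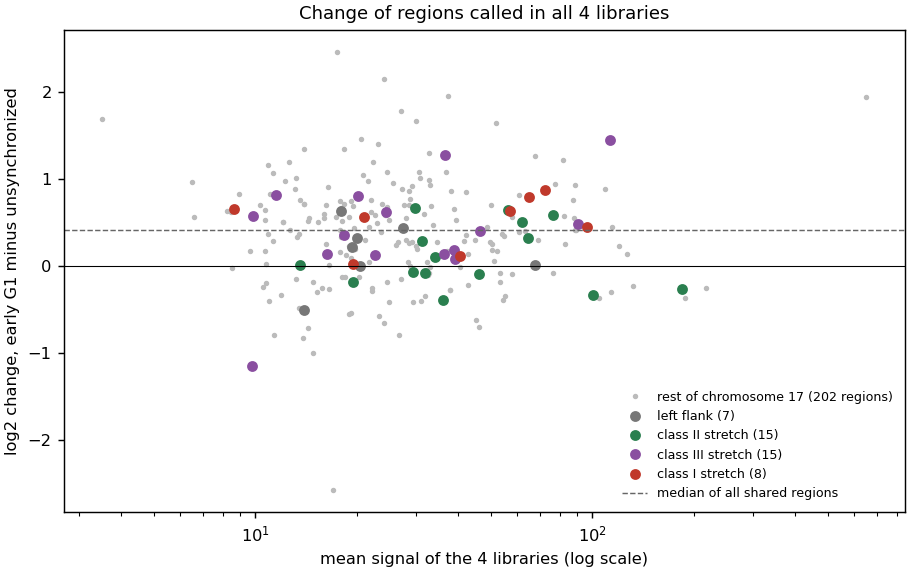
Log2 change in signal, early G1 minus unsynchronized, against mean signal of the 4 libraries (log scale), for regions called in all 4 libraries; members are coloured by stretch and the rest of chromosome 17 is grey. Of the 15 class II members, 11 lie below the dashed genome-wide median of 0.41, and 6 of the 8 class I members lie above it.

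In the class II stretch, the member of highest mean signal in the whole window was chr17:34398726-34401164. Its signal was 180.1 and 225.0 in unsynchronized cells and 171.9 and 161.7 in early G1 cells, over a length of 2360 to 2438 bp in each library. This was the only shared member with both early G1 libraries below both unsynchronized ones. Its log2 change was -0.27 (SE 0.41, limma adjusted p = 0.76), well within the spread.

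A second strong class II member, chr17:34421858-34424787, had signals of 101.1 and 123.2 against 103.6 and 75.3. These overlapped between the groups, and the log2 change was -0.33 (limma adjusted p = 0.71). Its called length ran from 1421 bp in unsynchronized replicate 1 to 2930 bp in early G1 replicate 2, so its signals are means over unequal lengths. At the neighbouring chr17:34428802-34438299, the longest shared class II member at 9498 bp, the signals were 53.0 and 41.2 against 57.4 and 33.4. The groups overlapped there as well.

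Among the named class II members called in all 4 libraries, 1 strong member went the other way. At chr17:34441982-34447318 the signals were 60.4 and 60.8 in unsynchronized cells and 81.2 and 103.3 in early G1 cells. The groups did not overlap, yet its log2 change of 0.59 (SE 0.41) did not pass (limma adjusted p = 0.49). Weaker named members had negative changes: chr17:34461933-34464156 at -0.39 and chr17:34438387-34440812 at -0.18, both with overlapping groups. Members outside the naming rule also had both early G1 libraries above both unsynchronized ones. These were chr17:34256502-34259587, chr17:34298341-34299684, chr17:34316988-34319334 and chr17:34322904-34324356, with log2 changes of 0.32, 0.51, 0.65 and 0.66. Of the 15 shared class II members, 8 lay above 0 and 7 below. Within 1 stretch of 300 kb, strong members thus lay on both sides of 0, and none passed the test.

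Another class II region, singled out after seeing the values, was as strong but lacked 1 library. At chr17:34375825-34376796 the signals were 95.1 and 96.4 in unsynchronized cells and 247.6 in early G1 replicate 1, while replicate 2 had no call. The early G1 call was 356 bp long, compared with 950 and 972 bp in unsynchronized cells. These signals are means over unequal lengths as well.

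The class III stretch held the largest changes among shared members. At chr17:35258402-35259143, a compact region of 742 bp, the signals were 20.3 and 21.3 in unsynchronized cells and 46.7 and 57.8 in early G1 cells. Both early G1 libraries were more than 2 times as high as either unsynchronized library, and the called lengths were alike, at 625, 742, 688 and 543 bp. The log2 change of 1.28 (SE 0.41) had an unadjusted p of 0.0069 and a limma adjusted p of 0.20.

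The largest change was at chr17:35378626-35380202, with signals of 64.4 and 47.0 against 247.9 and 93.4. Early G1 replicate 1 was far above the other libraries, but its call covered only 191 bp, against 1028 to 1199 bp in the others. Its log2 change was 1.45 (SE 0.48, limma adjusted p = 0.21). The change turned to -0.54 when unscaled reads were compared, and passed without early G1 replicate 2 (limma adjusted p = 0.034).

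Other class III members had smaller positive changes, and none passed. At chr17:34727331-34729113 the signals were 7.27 and 8.99 against 15.0 and 15.0, and at chr17:35369238-35373520 they were 12.3 and 16.7 against 24.5 and 27.3. The groups were apart at both, with log2 changes of 0.81 at each (limma adjusted p = 0.43 and 0.38). The former was called over 1609 and 1783 bp in unsynchronized cells but 882 and 878 bp in early G1 cells, and its change became -0.06 for signal times length. At the strong member chr17:35137977-35140486 the signals were 61.7 and 90.2 against 103.3 and 106.9. Its log2 change of 0.49 (limma adjusted p = 0.57) was only 0.07 beyond the genome-wide median.

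The 2 longest members called in all 4 libraries were class III regions, and their signals overlapped between the groups. The longest shared one, chr17:35125378-35137835, had signals of 30.1 and 43.1 in unsynchronized cells and 44.1 and 38.1 in early G1 cells. It was called over 6503, 6638 and 7199 bp in 3 libraries and over 12458 bp in early G1 replicate 2. A similar extension in that library was seen at chr17:35276352-35287542, called over 5276, 6103 and 5331 bp but over 11191 bp in early G1 replicate 2. Signal there was 30.2 and 38.9 against 34.45 and 41.5, in the same range.

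The shared members nearest to the position given for Tnf were chr17:35276352-35287542 and chr17:35309781-35312228, on either side of it. Farther on in the same 100 kb bin, a pair of neighbouring regions singled out after their values were seen was also called in all 4 libraries. At chr17:35330874-35337328 the signals were 14.0 and 24.7 in unsynchronized cells and 32.7 and 26.1 in early G1 cells, and the groups did not overlap. Its log2 change of 0.62 did not pass (limma adjusted p = 0.50) and was 0.21 beyond the genome-wide median. The region was 6455 and 5465 bp long in unsynchronized cells but 3647 and 3068 bp in early G1 cells. At chr17:35337567-35338983 the signals were 26.0 and 57.4 against 51.9 and 50.9, which overlapped (log2 change 0.40, limma adjusted p = 0.67).

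A single class III member had a large negative change, chr17:35309781-35312228. Its signals were 7.70 and 18.0 in unsynchronized cells and 12.02 and 1.58 in early G1 cells. The value rested on early G1 replicate 2, where the call was 399 bp long. Its log2 change of -1.15 (SE 0.74, limma adjusted p = 0.47) became 0.02 without that library.

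The 2 strongest shared members of the class I stretch were of unequal length. At chr17:35516505-35517247 the signals were 60.7 and 103.8 in unsynchronized cells and 129.9 and 90.7 in early G1 cells, with overlapping groups and calls of 684 to 743 bp. Its log2 change of 0.45 turned to -0.012 with each library divided by its median and to -0.21 for unscaled reads. At chr17:36053925-36056051 they were 51.2 and 50.3 against 86.0 and 102.8. Here the groups were apart and the lengths alike, at 1854 to 2127 bp.

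That member had a log2 change of 0.88 (SE 0.40, unadjusted p = 0.047, limma adjusted p = 0.33), the largest among class I members called in all 4 libraries. The most distal member named, chr17:36408040-36408871, had signals of 37.2 and 56.9 against 64.8 and 100.1 (log2 change 0.79, limma adjusted p = 0.40). Its lengths alternated between about the full region in the first replicates, 800 and 827 bp, and 180 and 249 bp in the second replicates. These members were named for their signal or change and were called in every library. Short class I regions could be missing as well: chr17:35974177-35975201, with signals of 30.8 and 48.5 in unsynchronized cells and 82.2 in early G1 replicate 1, had no call in replicate 2.

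The left flank, on the side of class II where the mouse carries H2-K1, held 4 regions over 5 kb with overlapping signals. They were called in all 4 libraries and covered 18.3 and 14.2 kb in unsynchronized cells and 20.2 and 16.5 kb in early G1 cells. The strongest, chr17:34085746-34091440, had signals of 44.9 and 93.8 against 54.5 and 78.1, a log2 change of 0.01. Replicates of 1 group differed here by more than the groups did.

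At chr17:34061068-34068943 the signals were 14.0 and 31.1 against 17.6 and 46.8, and at chr17:34051074-34058024 they were 12.4 and 24.1 against 16.9 and 24.4. In both, the second replicate was the higher one within each group. The region chr17:34070839-34077173 had 11.2 and 22.4 against 9.34 and 12.8, a log2 change of -0.50 (limma adjusted p = 0.62). Directly beside it, chr17:34077258-34077680 was called in early G1 alone, with signals of 82.4 and 74.8 over 340 and 378 bp, only 84 bp from the nearest unsynchronized region. It was singled out after its values were seen.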

How the data were processed

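The authors deposited 1 list of regions of convergent transcription per library, with a signal in column 4. Per the file headers and names, this signal is a geometric mean of both strands. Reads were aligned with BWA 0.7.12 to mm9 and processed with HOMER, per the submitters' processing notes; the sources used here do not give how regions were called and scaled. For each library, the square of signal times length was a whole multiple of 1 constant in 100% of the low values tested (tolerance 0.1), which gave the inferred read totals.

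Positions are counted from 1. Regions of the 4 libraries sharing at least 1 base were merged, and a library's value is the length-weighted mean of its regions. Merged regions called in all 4 libraries were fitted genome-wide on log2(signal + 1) by lmFit and eBayes with trend (limma 3.58.1, R 4.3.3). Tests were two-sided, adjusted by Benjamini-Hochberg, and called at 0.05. The fit was also run on simulated data with large changes and less spread than these data, which checks the code only. Single values were compared by exact two-sided permutation over libraries, and other steps used Python 3.11.15. Coverage of the rest of chromosome 17 was taken between its first and last region.

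Named members are the 8 of highest mean signal, the 6 largest changes in each direction and the 5 longest among those called in all 4 libraries, and the 3 longest restricted to each group. Members and lists were chosen with earlier results of these data known. Alternatives covered window edges, signal filter, merging, presence rule, pseudocount, scaling, trend, stretch limits, tile offset, replicate block and each library left out. Genes were not assigned to regions, and no sequence is shown, since the genome used here for names is another build.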

Additional observations from a re-analysis of the deposited data

How the results depend on the processing

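The higher density, coverage, length and signal of the window kept their direction under every alternative run, with log2 ratios of 2.68 to 3.03 for density, 2.99 to 3.28 for coverage, 0.41 to 0.55 for length and 0.24 to 0.45 for signal. Their small group differences did not all keep it. The density difference ranged from -0.091 (without early G1 replicate 1) to 0.12, with -0.0066 without unsynchronized replicate 2, and the length difference from -0.20 to 0.089. The log2 difference in covered length ranged over left-out libraries from 0.14 to 0.37 in class II, 0.14 to 0.34 in class III and -0.98 to -0.43 in class I, but from -0.060 to 0.30 in the left flank; leaving out libraries here was added after seeing the data. The rank by signal was 7 with shifted tiles, and a class III limit of 35300000 gave 24.7 and 31.7 regions per Mb in class III and class I. Members in all libraries were 19.2% when a library had to cover 50% of a region. Members of unsynchronized cells alone were 0 with merging within 1 kb, 6 with that coverage rule and 1 above the 25th percentile of signal, and those of early G1 alone were 7 with merging within 1 kb. The cause was not tested.

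The median log2 change of shared members was -0.13 with each library divided by its median and -0.33 for unscaled reads, and 0.011 to 0.59 over left-out libraries. Genome-wide, these scalings moved the median from 0.41 to -0.03 and -0.25. Calls within the window were 0 throughout, except 1 without early G1 replicate 2. The replicate numbers are not said to pair libraries, and same-numbered libraries deviated together only weakly (correlation 0.10). With the replicate block, the window's median stayed 0.32 with 0 calls, and calls over all shared regions were 4 in place of 17. They were 0 to 32 under the other settings that kept every library, and 19, 1, 68 and 119 without unsynchronized replicate 1 or 2 or early G1 replicate 1 or 2.

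Of 21 shared members named, the change reversed under some setting for 14. Per library median, the reversed changes were -0.22 at chr17:34051074-34058024, -0.45 at chr17:34085746-34091440, -0.27 at chr17:35125378-35137835, -0.31 at chr17:35276352-35287542 and -0.012 at chr17:35516505-35517247. For unscaled reads they were, in that order without the third, -0.19, -0.23, -0.088 and -0.21, and also -0.75 at chr17:34061068-34068943, -0.73 at chr17:34727331-34729113, -0.53 at chr17:35137977-35140486 and -0.54 at chr17:35378626-35380202. Signal times length gave -0.072 at chr17:34061068-34068943, 0.25 at chr17:34421858-34424787, 0.35 at chr17:34461933-34464156 and -0.056 at chr17:34727331-34729113, and merging within 1 kb 0.069 at chr17:34070839-34077173. Over left-out libraries the change ran from -0.23 to 0.67 at chr17:34051074-34058024, -0.24 to 1.12 at chr17:34061068-34068943, -0.52 to 0.53 at chr17:34085746-34091440, -0.47 to 0.29 at chr17:34428802-34438299, -0.88 to 0.10 at chr17:34461933-34464156, -0.070 to 0.43 at chr17:35125378-35137835, -0.039 to 0.32 at chr17:35276352-35287542 and -2.32 to 0.020 at chr17:35309781-35312228. Depth limits the weakest members most.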
